A study of Homo sapiens with 12 samples.

Results

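The cytoplasmic ribosomal protein genes are the rows of the count table whose Ensembl ID maps to a protein-coding RPS or RPL symbol, with RPLP0, RPLP1, RPLP2 and RPSA added and pseudogenes left out. This gave 84 of 63677 gene rows, 32 for the small and 52 for the large subunit, and none of the symbols in the reference annotation that fit the rule was missing from the table. RNA was sequenced from 2 established human pancreatic carcinoma cell lines, PANC-1 and MIA PaCa-2. Each line had 3 libraries with siRNA against RBM3, which encodes a protein that binds RNA and is induced by cold, and 3 with a negative control siRNA. All cultures were grown for 72 h, received 25 nM of siRNA with lipofectamine for 4.5 h, and recovered overnight before collection. The siRNA against RBM3 was a mixture of a pair of duplexes. The labels name total RNA in one place and cytoplasmic RNA in another, and do not tie the media they name to a line. Whether replicates came from separate cultures is not stated, so the spread behind each p-value may be technical. The question of the study was which transcripts depend on RBM3 in these lines.

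Each cytoplasmic ribosome has a small (40S) and a large (60S) subunit, and nearly every ribosomal protein is present in a single copy per ribosome, so their mRNAs are made in a coordinated way. Most of these mRNAs start with a 5′ terminal oligopyrimidine (TOP) tract, a C followed by a run of C and T, through which the mTOR pathway and the RNA-binding protein LARP1 control their translation. Some ribosomal proteins also act outside the ribosome: RPL5 and RPL11 bind and inhibit the ubiquitin ligase MDM2 when ribosome assembly fails, and loss of a copy of several of these genes causes Diamond-Blackfan anaemia.

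A long run of C and T lies at the annotated transcription start in most of these genes. The run is short in others, among both main genes and paralogues, and examples of long and short runs are shown. RefSeq promoter windows (GRCh38.p14) matched 67 of the 84 genes. Each line gives 35 bases before the start and 25 from it, in the direction of transcription, and the capitals mark the longest run of C and T that touches the 5 bases on either side of the start. RPS16 lies at chr19:39435925-39435984 and RPS6 at chr9:19380212-19380271, both on the minus strand. RPL39 lies at chrX:119791606-119791665 and RPL22 at chr1:6199571-6199630, also on the minus strand, and RPS27 at chr1:153990727-153990786 on the plus strand. The paralogue RPL22L1 lies at chr3:170870171-170870230 and RPS27L at chr15:63157453-63157512, both on the minus strand. RPL26L1 lies at chr5:172958694-172958753 and RPL7L1 at chr6:42879581-42879640, both on the plus strand.
RPS16: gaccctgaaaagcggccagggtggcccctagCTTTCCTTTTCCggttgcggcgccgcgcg
RPS6: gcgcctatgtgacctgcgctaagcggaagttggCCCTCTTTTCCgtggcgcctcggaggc
RPL39: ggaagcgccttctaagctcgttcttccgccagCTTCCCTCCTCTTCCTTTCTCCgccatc
RPL22: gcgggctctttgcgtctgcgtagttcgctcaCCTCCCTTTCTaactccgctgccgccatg
RPL22L1: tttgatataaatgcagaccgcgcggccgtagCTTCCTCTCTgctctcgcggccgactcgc
RPS27: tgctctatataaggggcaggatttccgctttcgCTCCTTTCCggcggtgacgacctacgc
RPS27L: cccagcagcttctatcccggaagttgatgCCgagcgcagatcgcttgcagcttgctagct
RPL26L1: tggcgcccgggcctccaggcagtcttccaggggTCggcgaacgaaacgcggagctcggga
RPL7L1: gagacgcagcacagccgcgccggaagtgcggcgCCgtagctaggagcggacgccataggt

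The run was 12 bases long in RPS16, 11 in RPS6 and RPL22, 22 in RPL39 and 9 in RPS27. Among the paralogues it was 10 bases in RPL22L1 and 2 bases in RPS27L, RPL26L1 and RPL7L1. Short runs were not particular to paralogues. Main genes not printed here had 1 base (RPL4 and RPL9), 2 bases (RPL27, RPS15 and RPS29) or 4 bases (RPL13), among others. A run of 7 or more C and T was present in 48 of the 67 matched genes (71.6%, median run 10 bases), against 5414 of the 35116 promoter windows in the table (15.4%, median run 4 bases). The run was searched only in the sequence as read in the direction of transcription, and it did not have to begin with a C or at the start itself. The starts are those of the annotation, not starts measured in these cells.

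Expression is given as TMM-normalised CPM (library counts scaled to a common total), and a gene is called changed where the Benjamini-Hochberg adjusted p of edgeR's quasi-likelihood test, over 17862 genes, was under 0.05. Library totals ranged from 14217185 to 39652502 counts. Of the 84 genes, 80 passed the filter on low counts. The other 4 were RPL10L and RPL3L, paralogues known from testis and from muscle, and RPL26 and RPL36A, which are constitutive parts of the large subunit. RPL26 had 0 to 10 counts and RPL36A 0 to 8 counts in a library. RPS10, a small-subunit gene that passed the filter, had 2 to 23 counts. In the reference annotation RPL26, RPL36A, RPS10, RPL17, RPL36 and RPS15A, among others, overlap another protein-coding gene on their strand, where a read can fit both genes. The overlapping rows RPL36A-HNRNPH2, RPS10-NUDT3 and RPL17-C18orf32 held 143, 127 and 118 counts over the 12 libraries. How reads in such overlaps were assigned was not tested. For RPL26, RPL36A and RPS10, pseudogenes with the same symbol stem held 15376, 9794 and 7831 counts over the 12 libraries, against 31, 44 and 142 counts for the genes themselves. The counts of these 3 genes are therefore uncertain. Pseudogenes also held 135 counts for each 100 counts of RPL17 and 81.3 for each 100 counts of RPS26.

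The targeted gene was lower in every RBM3 siRNA library than in every control library of its line. RBM3 was at 96.5, 195 and 83.0 CPM in PANC-1 RBM3 siRNA replicates 1, 2 and 3, and at 567, 426 and 436 CPM in PANC-1 control replicates 1, 2 and 4. In MIA PaCa-2 it was at 44.4, 37.4 and 61.9 CPM in RBM3 siRNA replicates 1, 2 and 5, and at 250, 277 and 207 CPM in control replicates 1, 2 and 4. The log2 fold change was -1.93 (SE 0.30, edgeR adjusted p = 0.516) in PANC-1, which missed the threshold used here, and -2.35 (SE 0.31, edgeR adjusted p = 0.0426) in MIA PaCa-2. PANC-1 RBM3 siRNA replicate 3 did not go with its label alone. The summed level of 4 transcripts that mark MIA PaCa-2 here (COL1A2, ALDH1A1, UCA1 and SLC17A9, each detected) was 1222 CPM in that library, against 0.507 to 4.02 CPM in the other 5 PANC-1 libraries and 2200 to 3518 CPM in MIA PaCa-2. In comparisons that use this library, some counts and gene values are given with and without it, and the rest with it alone. The summed level of 5 epithelial keratin and adhesion markers was 3908 to 7513 CPM in PANC-1 and 1940 to 3429 CPM in MIA PaCa-2, but in MIA PaCa-2 EPCAM was at most 0.0952 CPM and CDH1 at most 0.833 CPM.

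The ribosomal protein genes took a smaller share of PANC-1 counts than of MIA PaCa-2 counts. With RBM3 siRNA the share was 3.57%, 3.01% and 4.17% in PANC-1 replicates 1, 2 and 3, against 4.96%, 4.84% and 6.06% in MIA PaCa-2 replicates 1, 2 and 5. With control siRNA it was 3.75%, 3.84% and 4.09% in PANC-1 replicates 1, 2 and 4, against 4.01%, 5.76% and 5.13% in MIA PaCa-2 replicates 1, 2 and 4. The lines did not overlap with RBM3 siRNA, and overlapped with control siRNA through MIA PaCa-2 replicate 1. That library was the most deeply sequenced of the 12 and stood apart from its group: 77 of 80 genes were below their group mean in it, with a median deviation of -0.38 on the log2 scale. It also had the highest summed levels of 5 leukocyte markers, 20.9 CPM, of which CD14 gave 20.5, and of 4 endothelial markers, 8.04 CPM, of which CDH5 gave 7.57. The other MIA PaCa-2 control libraries had 5.30 and 6.06 CPM and 0.393 and 0.631 CPM of these lists, and PTPRC and PECAM1, which define those cell types, were at 0.0238 and 0 CPM in replicate 1. The part of these cells or of depth in its ribosomal protein values was not tested. The 3 deepest MIA PaCa-2 libraries had the 3 lowest shares in that line. The means of the siRNA and control groups were 3.58% ± 0.58 and 3.89% ± 0.18 in PANC-1 and 5.28% ± 0.68 and 4.97% ± 0.89 in MIA PaCa-2 (SD, n = 3 each), and the groups overlapped in both lines. Without replicate 3 the PANC-1 siRNA mean was 3.29% (n = 2), and both libraries were then below every PANC-1 control library. In bulk libraries, fewer cells with a high level and less of the RNA in each cell cannot be told apart.

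With control siRNA, PANC-1 had lower levels of many ribosomal protein mRNAs than MIA PaCa-2, and much higher levels of a pair of them. Of 80 genes tested, 31 were lower in PANC-1 (38.8%, where 24.8% of all genes tested were lower) and 3 were higher (3.75%, where 26.0% of all genes were higher). The median log2 fold change of PANC-1 over MIA PaCa-2 was -0.40, against 0.00 for all genes tested, and 65 of 80 genes had a negative value. The large subunit had 22 lower and 1 higher of 48 genes, with a median of -0.42. The small subunit had 9 lower and 2 higher of 32 genes, with a median of -0.35. Among the 64 tested genes with a promoter window, the 46 with a run of 7 or more pyrimidines had a median of -0.38 and 18 lower calls, and the 18 with a shorter run had a median of -0.49 and 9 lower calls. Without MIA PaCa-2 control replicate 1 and PANC-1 RBM3 siRNA replicate 3, which both stood apart, 49 genes were lower in place of 31, a removal chosen after seeing the data. Calls over all genes, in both directions, were then 8700 of 18043, against 9080 of 17862 with all libraries. With single libraries left out the lower count ran from 21, without MIA PaCa-2 control replicate 2, to 46, without MIA PaCa-2 control replicate 1, and it was 22 without PANC-1 control replicate 2. Calls over all genes in these removals were 8158 of 18500, 8212 of 18347 and 8101 of 18459, in that order.

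**Figure D1:**
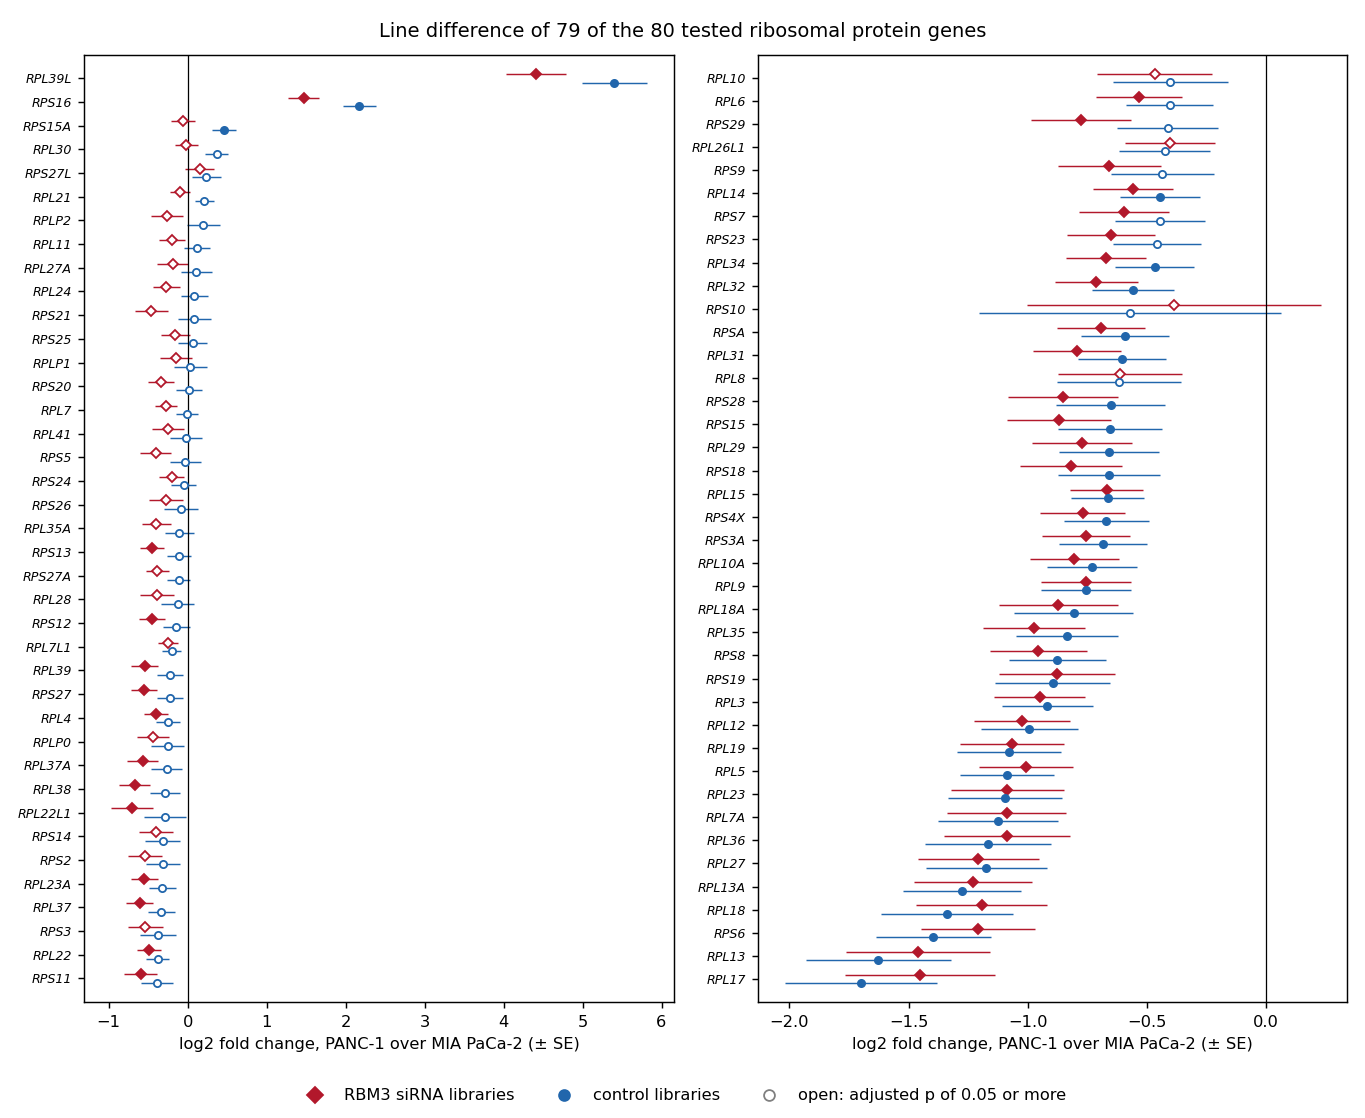
Log2 fold change of PANC-1 over MIA PaCa-2 (x axis, ± SE) for 79 of the 80 tested genes in order of the control comparison, with RBM3 siRNA libraries as red diamonds and control libraries as blue circles, open where the edgeR adjusted p was 0.05 or more. The left and right panels have different x ranges. RPL39L and RPS16 stand to the right, while the right panel, with values down to -1.70 for RPL17, lies below 0 in all its points, with an error bar that crosses 0 for RPS10 alone.

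The same direction was found in the RBM3 siRNA libraries, which share no library with the control comparison but share its model and its spread. There 48 of 80 genes were lower in PANC-1 (60%, where 19.3% of all genes were lower) and 2 were higher (2.5%, where 24.2% were higher), with a median log2 fold change of -0.57. All 31 genes that were lower with control siRNA were also lower with RBM3 siRNA, and RPL39L and RPS16 were higher in both. Calls over all genes, in both directions, were 7781 of 17862. Without PANC-1 RBM3 siRNA replicate 3 there were 52 lower and 2 higher, and calls over all genes rose to 9243 of 18422. Without PANC-1 RBM3 siRNA replicate 2 the lower count fell to 31, and calls over all genes fell to 5660 of 18303. That library had the lowest share of ribosomal protein counts, with 77 of 80 genes below their group mean.

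RPS16, a protein of the head of the small subunit, had the opposite direction to most of its partners. With RBM3 siRNA it was at 2296, 2228 and 1797 CPM in PANC-1 replicates 1, 2 and 3, against 717, 648 and 918 CPM in MIA PaCa-2 replicates 1, 2 and 5. With control siRNA it was at 2933, 3346 and 3095 CPM in PANC-1 replicates 1, 2 and 4, against 501, 842 and 734 CPM in MIA PaCa-2. Every PANC-1 library was above every MIA PaCa-2 library. The log2 fold change was 1.47 (SE 0.20, edgeR adjusted p = 1.18e-04) with RBM3 siRNA, 1.57 without PANC-1 RBM3 siRNA replicate 3, and 2.17 (SE 0.20, edgeR adjusted p = 5.21e-06) with control siRNA.

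Genes next to RPS16 on chromosome 19 differed between the lines in the same direction. This stretch was chosen after its values were seen. Going outward from RPS16 through the tested protein-coding genes, 21 in a row, from GMFG on one side to AKT2 on the other, were higher in PANC-1 in both line comparisons. Their log2 fold changes with control siRNA were 1.51 to 6.41 with a median of 3.30, and 19 of the 21 exceeded that of RPS16. The stretch holds FBL, the nucleolar methyltransferase fibrillarin that acts in ribosome assembly, SUPT5H, a transcription elongation factor, PSMC4, a proteasome subunit, and AKT2, a protein kinase. FBL was at 1725, 1944 and 1800 CPM in PANC-1 control replicates 1, 2 and 4, against 193, 290 and 211 CPM in MIA PaCa-2, a log2 fold change of 2.98 (SE 0.20, edgeR adjusted p = 3.61e-07). The pattern ended beyond AKT2, where of the next 10 genes 1 was higher and 4 were lower, with a median of -0.55. On the other side, beyond GMFG, 13 of the next 19 genes were higher and none lower (median 2.09), among them MRPS12, a mitochondrial ribosomal protein gene, with 2.60. DNA copy number was not measured in this series, and its part in these values was not tested.

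**Figure D2:**
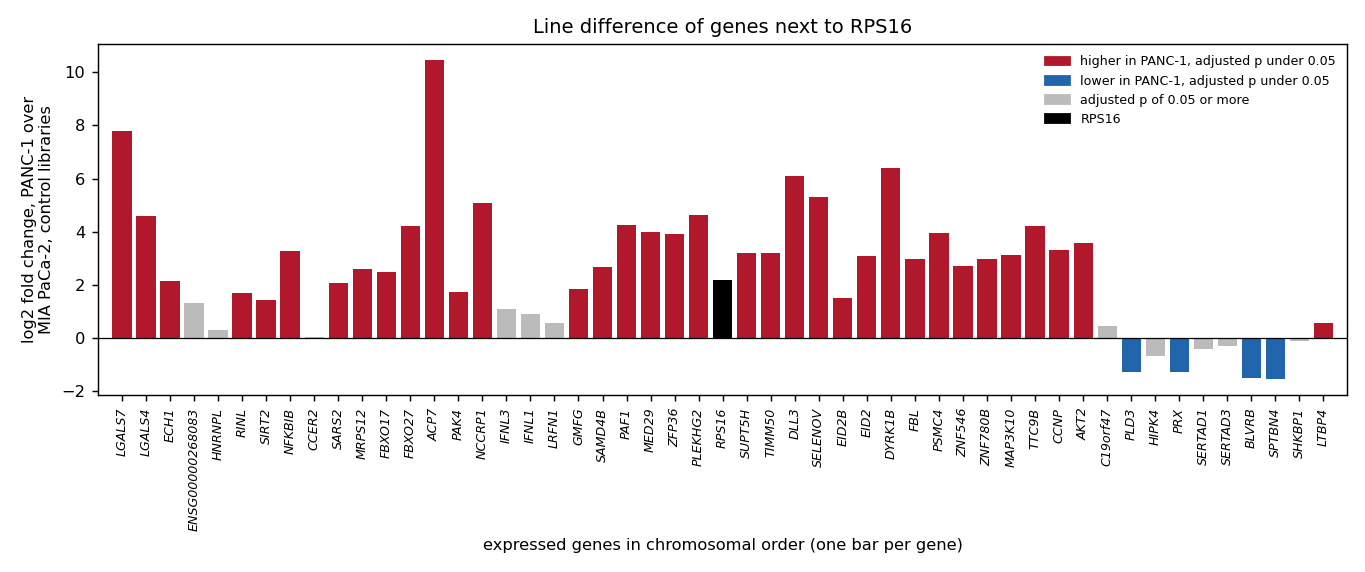
Log2 fold change of PANC-1 over MIA PaCa-2 in control libraries (y axis) for RPS16 (black) and the 25 tested protein-coding genes on either side, in chromosomal order (x axis, spacing not to scale). The bars from GMFG to AKT2 are all red, for higher in PANC-1 with an edgeR adjusted p under 0.05, and the bars to the right of AKT2 are mostly at or below 0.

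Across the 80 genes, the line difference also followed that of the 5 tested genes on either side. Pearson's r between a gene and the median of these 10 neighbours was 0.42 and Spearman's rho 0.67 (n = 80 genes, r = 0.31 without RPS16), against 0.23 and 0.34 for 13022 other protein-coding genes. These are correlations across genes of the same libraries, and genes are not independent replicates. The sets were not matched for expression level or SE. The values therefore do not show that ribosomal protein genes follow their neighbours more closely than other genes do. The 10 neighbours of RPL5 on chromosome 1 differed by a median of -0.98 on the log2 scale, with 9 lower and none higher in PANC-1. Those of RPS6 on chromosome 9 had a median of -1.10, with 5 lower and 4 higher, and those of RPL17 on chromosome 18 -0.92, with 5 lower and 2 higher. Other genes went against their neighbours: RPS4X, at -0.67, had neighbours with a median of 0.95, 9 of them higher and none lower, and RPS14, at -0.32, had neighbours with a median of 3.87. The neighbours of RPL39L had a median of -0.15.

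RPL39L, a paralogue of the large-subunit gene RPL39 that is known for its high level in the male germ line, was close to absent from MIA PaCa-2. With RBM3 siRNA it was at 37.2, 20.6 and 17.4 CPM in PANC-1 replicates 1, 2 and 3, against 1.05, 1.10 and 1.40 CPM in MIA PaCa-2 replicates 1, 2 and 5. With control siRNA it was at 25.1, 28.9 and 37.4 CPM in PANC-1 replicates 1, 2 and 4, against 0.595, 0.458 and 1.14 CPM in MIA PaCa-2, where the 3 libraries held 25, 7 and 18 counts. The groups were far apart in both comparisons. The log2 fold change was 4.41 (SE 0.39, edgeR adjusted p = 2.85e-06) with RBM3 siRNA, 4.61 without PANC-1 RBM3 siRNA replicate 3, and 5.40 (SE 0.41, edgeR adjusted p = 9.18e-07) with control siRNA. Its main gene RPL39 went the other way, with -0.55 (SE 0.17, edgeR adjusted p = 0.0214) with RBM3 siRNA and -0.22 (SE 0.17, edgeR adjusted p = 0.291) with control siRNA. RPL39L had 5.95% to 14.3% of the CPM of RPL39 in PANC-1 libraries, against 0.114% to 0.343% in MIA PaCa-2 libraries, without correction for transcript length.

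The other paralogues differed less. RPS27L had 8.08% to 11.6% of the CPM of RPS27 in PANC-1 libraries and 5.07% to 9.30% in MIA PaCa-2 libraries, which overlapped. RPL22L1 had 7.57% to 12.8% of the CPM of RPL22 in PANC-1 and 7.03% to 14.2% in MIA PaCa-2, and RPL7L1 49.96% to 64.2% of the CPM of RPL7 in PANC-1 and 48.1% to 72.9% in MIA PaCa-2. Of these 3 paralogues and RPL26L1, none was called in the control comparison, with log2 fold changes of 0.24 (SE 0.18) for RPS27L, -0.29 (SE 0.26) for RPL22L1, -0.20 (SE 0.12) for RPL7L1 and -0.43 (SE 0.19) for RPL26L1. In the RBM3 siRNA comparison RPL22L1 was lower in PANC-1, at -0.70 (SE 0.26, edgeR adjusted p = 0.0462; -0.79 without PANC-1 RBM3 siRNA replicate 3), although 2 PANC-1 libraries (40.1 and 40.2 CPM) exceeded the lowest MIA PaCa-2 library (38.6 CPM), and that call was lost when any of 8 of the 12 libraries was left out.

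RPS15A, a small-subunit gene, was the third gene called higher in PANC-1 with control siRNA. It was at 236, 223 and 279 CPM in PANC-1 control replicates 1, 2 and 4, against 158, 198 and 182 CPM in MIA PaCa-2, a log2 fold change of 0.46 (SE 0.15, edgeR adjusted p = 0.0239). Without PANC-1 control replicate 4 it was 0.35 and without MIA PaCa-2 control replicate 1 it was 0.40, with edgeR adjusted p of 0.111 and 0.0621, and over all alternatives the adjusted p ran from 0.00563 to 0.111. With RBM3 siRNA the value was -0.06 (SE 0.15), and PANC-1 and MIA PaCa-2 libraries overlapped.

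RPS6, the small-subunit protein phosphorylated by the S6 kinases of the mTOR pathway, was lower in PANC-1. With RBM3 siRNA it was at 406, 359 and 694 CPM in PANC-1 replicates 1, 2 and 3, against 1020, 1038 and 1313 CPM in MIA PaCa-2 replicates 1, 2 and 5. With control siRNA it was at 418, 365 and 427 CPM in PANC-1 replicates 1, 2 and 4, against 828, 1244 and 1110 CPM in MIA PaCa-2. The lines did not overlap. The log2 fold change was -1.21 (SE 0.24, edgeR adjusted p = 0.00188) with RBM3 siRNA, -1.56 without PANC-1 RBM3 siRNA replicate 3, and -1.40 (SE 0.24, edgeR adjusted p = 5.32e-04) with control siRNA.

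Of the 8 largest falls in PANC-1 with control siRNA, 7 were in the large subunit, and RPS6, next in size after RPL17 and RPL13, was the other. RPL17, which lines the exit tunnel for the growing protein chain, was at 27.6, 29.3 and 35.5 CPM in PANC-1 control replicates 1, 2 and 4, against 78.5, 119 and 103 CPM in MIA PaCa-2, a log2 fold change of -1.70 (SE 0.32, edgeR adjusted p = 9.24e-04). With its pseudogenes added the value was -1.31. RPL13 was at 456, 434 and 442 CPM in PANC-1 control libraries, against 971, 1706 and 1443 CPM in MIA PaCa-2, a log2 fold change of -1.63 (SE 0.30, edgeR adjusted p = 9.17e-04). Neither gene overlapped between the lines. After RPS6, RPL18 followed with -1.34 (SE 0.28), RPL13A, which also silences translation in myeloid cells after interferon gamma, with -1.28 (SE 0.25), RPL27 with -1.17 (SE 0.25), RPL36 with -1.17 (SE 0.26) and RPL7A with -1.12 (SE 0.25), all called by edgeR with adjusted p of 0.00117 to 0.00301. With RBM3 siRNA these 7 genes had values of -1.46 to -1.09 and all were called lower, and without PANC-1 RBM3 siRNA replicate 3 the values were -1.99 to -1.38.

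**Figure D3:**
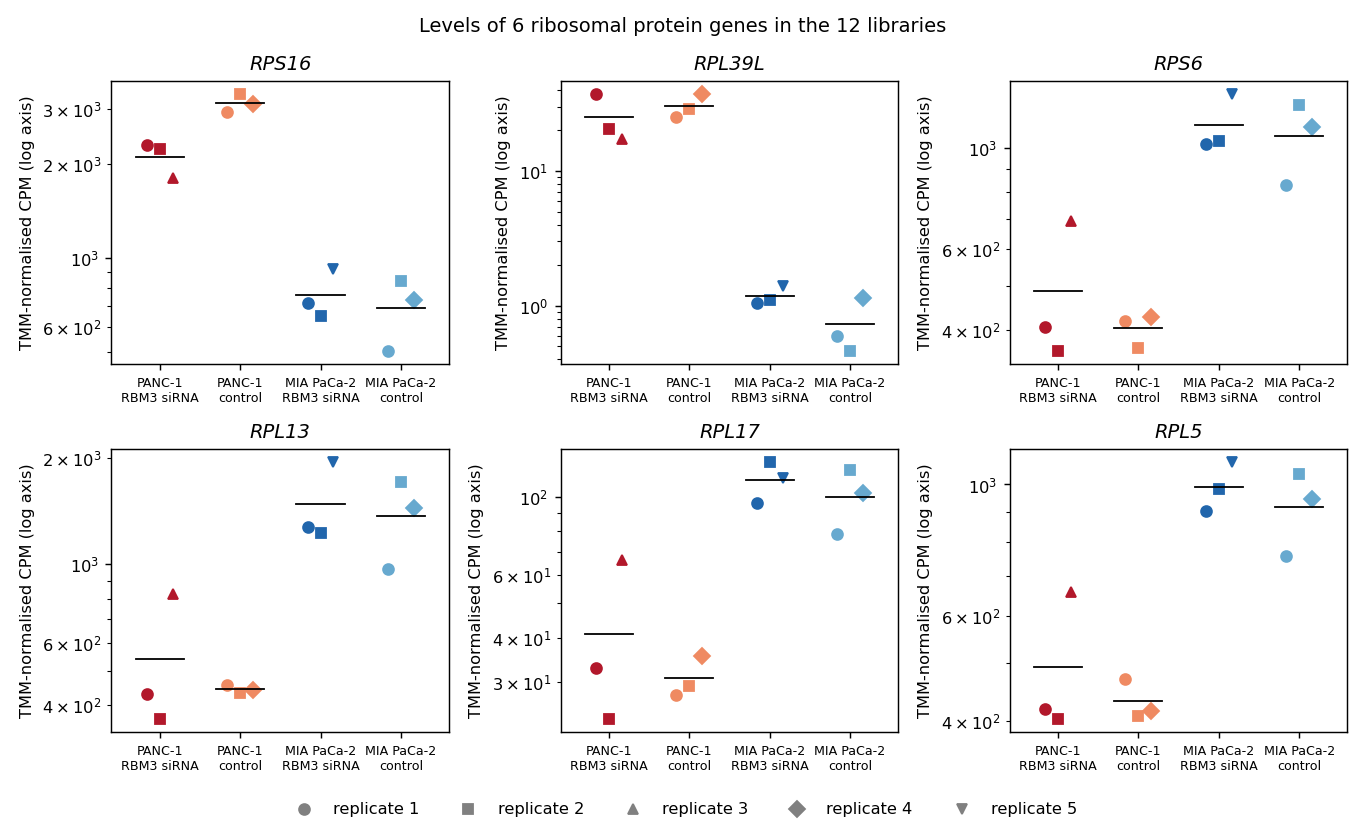
TMM-normalised CPM (y axis, log scale) of RPS16, RPL39L, RPS6, RPL13, RPL17 and RPL5 in each of the 12 libraries, by group (x axis), with the mean as a line and the replicate number as the shape of the point. PANC-1 lies above MIA PaCa-2 for RPS16 and RPL39L and below it for the other 4 genes, and PANC-1 RBM3 siRNA replicate 3 (upright triangle) lies nearest to MIA PaCa-2 among the PANC-1 libraries for each of the 6 genes.

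RPL5 and RPL11, which bind MDM2 as one particle with 5S rRNA, differed in their line values. RPL5 was at 470, 407 and 416 CPM in PANC-1 control replicates 1, 2 and 4, against 759, 1043 and 944 CPM in MIA PaCa-2, with no overlap and a log2 fold change of -1.09 (SE 0.20, edgeR adjusted p = 7.69e-04). RPL11 was at 541, 505 and 541 CPM in PANC-1 control libraries, against 370, 594 and 495 CPM in MIA PaCa-2, which overlapped, and its log2 fold change was 0.12 (SE 0.16, edgeR adjusted p = 0.560). The difference between these values of the 2 genes was not tested. Of 17 tested genes mutated in Diamond-Blackfan anaemia 8 were lower and none higher in PANC-1, where 24.8% of all genes and 38.8% of the 80 were lower, with a median of -0.57. RPS19, the gene most often mutated in that disease, had a log2 fold change of -0.89 (SE 0.24, edgeR adjusted p = 0.00841). RPS26 had -0.08 (SE 0.22).

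PANC-1 RBM3 siRNA replicate 3 lay between the lines in the genes that separated them most. Over the 13 genes called in the control comparison with a log2 fold change of 1 or more in size, its level stood 36.3% to 47.9% of the way (median 41.6%) from the mean of the other PANC-1 libraries to the mean of MIA PaCa-2. The range covers RPS16 (47.9%) and RPL39L (43.0%), which are high in PANC-1, and RPL13A (36.3%) and RPS6 (42.9%), which are low in it. For the 4 MIA PaCa-2 transcripts the proportion was 31.5% to 56.7%, and for 5 transcripts that mark PANC-1 (FOXA2, MFSD1, SPART, DDX43 and B3GALNT1) it was 33.3% to 61.9%. How this library came to hold transcripts of both lines was not tested.

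RBM3 siRNA changed none of the 80 genes past the threshold in either line. In PANC-1 edgeR called 0 genes (0% of all genes tested), and 1 of the 80 had an unadjusted p under 0.05 (4.12% of all genes). In MIA PaCa-2 it called 0 of the 80 (0.0112% of all genes), and 0 had an unadjusted p under 0.05 (2.94% of all genes). DESeq2 and limma-voom also called none in either line. At an unadjusted p under 0.05 DESeq2 gave 1 of the 80 in PANC-1 and 0 in MIA PaCa-2, against 690 and 519 of all 17862 genes. At the same limit limma-voom gave 1 in each line, against 317 of all genes in PANC-1 and 506 in MIA PaCa-2. Without PANC-1 RBM3 siRNA replicate 3 edgeR gave 1 ribosomal protein gene in PANC-1 at this limit, against 198 of 18422 genes. Log2 fold changes of RBM3 siRNA over control ran from -0.57 to 0.41 in PANC-1, with a median of -0.09 and 56 of 80 negative, and from -0.41 to 0.71 in MIA PaCa-2, with a median of 0.10 and 69 of 80 positive. The median of all genes was 0.03 in PANC-1 and 0.00 in MIA PaCa-2. Without MIA PaCa-2 control replicate 1 the median in MIA PaCa-2 was -0.05, and without RBM3 siRNA replicate 5 it was -0.02. In PANC-1 it was -0.23 without RBM3 siRNA replicate 3 and -0.01 without RBM3 siRNA replicate 2. Single libraries thus set both the size and, in MIA PaCa-2, the sign of these medians.

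RPS16 had the smallest p of the 80 in PANC-1. The levels given above for this gene do not overlap between the RBM3 siRNA and control libraries of PANC-1, and the log2 fold change was -0.57 (SE 0.20, unadjusted p = 0.0129, edgeR adjusted p = 0.9997). Its lowest library was replicate 3, which holds MIA PaCa-2 transcripts, and without it the value was -0.48. With the log2 total count as a covariate the value was -0.22. FBL was also lower in the siRNA libraries, at 1496, 1321 and 1012 CPM in RBM3 siRNA replicates 1, 2 and 3, against 1725, 1944 and 1800 CPM in control replicates 1, 2 and 4. Its log2 fold change was -0.51 (SE 0.19, edgeR adjusted p = 0.9997), and replicate 3 was again the lowest. Every other gene from GMFG to AKT2 also had a lower PANC-1 mean with RBM3 siRNA. PSMC4 was at 1639 against 2147 CPM, and AKT2 at 1598 against 2019 CPM. The siRNA means include replicate 3. The stretch was picked for its line difference, so MIA PaCa-2 transcripts in that library would by themselves pull these means down. No value without it is given for the genes other than RPS16 and FBL, so no conclusion is drawn from their shared direction. Of all genes tested, 8065 of 17862 had a negative log2 fold change in PANC-1. In MIA PaCa-2 the RPS16 value was 0.14 (SE 0.20).

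Many of the genes shared the direction of RPS16 in PANC-1 without passing the test. In 18 of the 80 (22.5%, where 2.77% of all genes tested did so) every RBM3 siRNA library of PANC-1 lay below every control library, and in none did every siRNA library lie above (3.75% of all genes did so). Without RBM3 siRNA replicate 3 the first count was 49 (61.2%, against 5.71% of all genes) and the second again 0 (against 6.68% of all genes). The 80 genes moved together from library to library, so that these are not independent genes, and the siRNA libraries of PANC-1 had 31440551 to 33341322 counts, against 14217185 to 23993638 in its control libraries. The part of depth in this count was not tested, and with the log2 total count as a covariate the median of the 80 genes in PANC-1 was 0.15.

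The genes next in order of p in PANC-1 had values within 2 SE of 0. RPL30, a large-subunit protein, was at 503, 440 and 445 CPM in RBM3 siRNA replicates 1, 2 and 3, against 523, 560 and 569 CPM in control replicates 1, 2 and 4, with a log2 fold change of -0.25 (SE 0.15, edgeR adjusted p = 0.9997). RPLP2, one of the acidic stalk proteins that recruit elongation factors, was at 616, 535 and 605 CPM with RBM3 siRNA, against 685, 793 and 754 CPM with control siRNA, with -0.35 (SE 0.21, edgeR adjusted p = 0.9997). RPS21, a small-subunit protein, overlapped between the groups, at 320, 232 and 277 CPM with RBM3 siRNA, against 304, 336 and 404 CPM with control siRNA. RPS6 had a log2 fold change of 0.27 (SE 0.24) in PANC-1, which rested on replicate 3 and was -0.09 without it.

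In MIA PaCa-2 the RBM3 siRNA libraries lay above every control library in 4 of the 80 genes (5%, where 4.41% of all genes did so) and below every control library in none (3.63% of all genes did so). Without MIA PaCa-2 control replicate 1 the counts were again 4 and 0 (against 8.90% and 9.09% of all genes). The 4 genes were RPL34, RPS15A, RPL21 and RPL7L1. RPL34 of the large subunit was at 268, 247 and 261 CPM in RBM3 siRNA replicates 1, 2 and 5, against 172, 238 and 208 CPM in control replicates 1, 2 and 4, a log2 fold change of 0.33 (SE 0.17, edgeR adjusted p = 1). RPS15A was at 236, 210 and 215 CPM with RBM3 siRNA, against 158, 198 and 182 CPM with control siRNA, a log2 fold change of 0.30 (SE 0.15, edgeR adjusted p = 1). RPL39L had the largest value, 0.71 (SE 0.40, edgeR adjusted p = 1), at levels close to 1 CPM. RPS6 had 0.08 (SE 0.24).

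**Figure D4:**
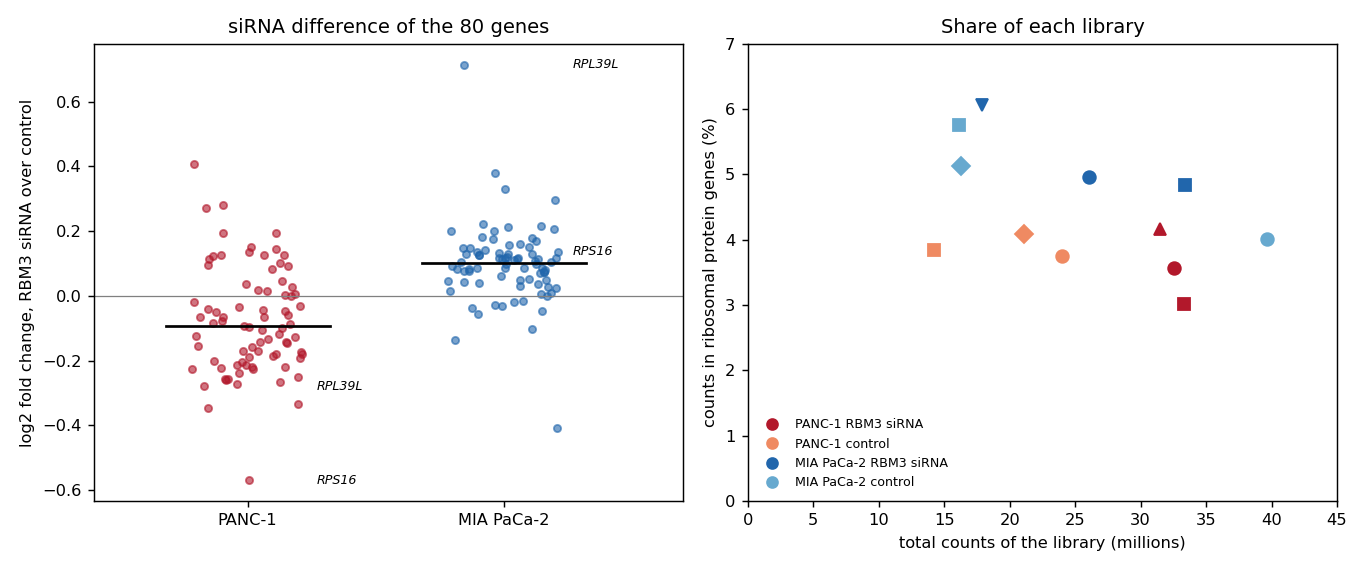
Left, log2 fold change of RBM3 siRNA over control (y axis) for the 80 genes in PANC-1 and in MIA PaCa-2, one point per gene with the median as a line; names stand at the height of the points for RPS16 and RPL39L. Right, share of the counts of each library in the ribosomal protein genes (y axis, %) against its total counts (x axis, in units of 1e6), by group, with replicates 1 to 5 as circle, square, upright triangle, diamond and inverted triangle. The medians were -0.09 in PANC-1 and 0.10 in MIA PaCa-2, and the MIA PaCa-2 library with the most counts had the lowest share of its line, 4.01%.

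The difference between the responses of the lines was tested as an interaction. EdgeR called 0 of the 80 genes (0% of all genes tested), and 2 had an unadjusted p under 0.05 (2.98% of all genes). These were RPS16, with a difference of -0.71 (SE 0.28, unadjusted p = 0.0249, edgeR adjusted p = 0.9999), and RPS15A, with -0.52 (SE 0.21, unadjusted p = 0.0318, edgeR adjusted p = 0.9999). DESeq2 and limma-voom also called none of the 80, with 3 and 2 at an unadjusted p under 0.05, against 523 and 286 of all 17862 genes. RPL39L, with -0.99 (SE 0.51), and RPS21, with -0.55 (SE 0.29), were next in order of p. The median difference, PANC-1 minus MIA PaCa-2, was -0.17, against 0.06 for all genes, and it was -0.03 without MIA PaCa-2 control replicate 1. All these values include PANC-1 RBM3 siRNA replicate 3. Without it 2 ribosomal protein genes had an unadjusted edgeR p under 0.05, against 358 of 18422 genes.

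Of the other gene lists around the ribosome, all but the host genes of small nucleolar RNAs had calls in both directions in the control comparison. In that comparison 26.0% of all genes tested were higher in PANC-1 and 24.8% lower, the shares to set beside the counts of each list. Of 16 tested genes for other TOP mRNAs, 4 were higher and 3 lower in PANC-1 with control siRNA, with a median log2 fold change of -0.08. EEF2, the elongation factor that moves the ribosome along the mRNA, was lower with -1.52 (SE 0.24, edgeR adjusted p = 2.99e-04), and EIF3F, a subunit of initiation factor eIF3, was higher with 0.68 (SE 0.18, edgeR adjusted p = 0.0066). FAU, which encodes the ribosomal protein RPS30 as a fusion with a ubiquitin-like protein, was higher with 0.61 (SE 0.22, edgeR adjusted p = 0.0337) in control libraries, and had 0.19 (SE 0.22, edgeR adjusted p = 0.494) with RBM3 siRNA. Of 13 non-coding host genes of small nucleolar RNAs 3 were lower and none higher, with SNHG29 at -1.05 (SE 0.20) and SNHG8 at -1.04 (SE 0.24).

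Nucleolar assembly factors had 12 higher and 8 lower of 58 tested genes with a median of 0.19, led by FBL and by RRP1B, which is part of the nucleolar granular component, at -1.37 (SE 0.18, edgeR adjusted p = 8.27e-05). Of 7 dedicated escorts of single ribosomal proteins 3 were higher and 1 lower, with TSR2, the partner of RPS26, at 1.11 (SE 0.23, edgeR adjusted p = 0.00185) and PDCD2, the partner of RPS2, at 0.66 (SE 0.15, edgeR adjusted p = 0.00266). The mitochondrial ribosomal proteins, which build a separate ribosome, had 16 higher and 12 lower of 69 tested genes with a median of -0.05, with MRPL27 at 1.67 (SE 0.19, edgeR adjusted p = 2.87e-05) and MRPS12 at 2.60 (SE 0.31, edgeR adjusted p = 3.60e-05).

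Of 15 tested regulators of ribosomal protein synthesis and ribosome quality control 2 were higher and 5 lower. EIF4EBP1, the translation repressor controlled by mTOR, was lower with -1.45 (SE 0.20, edgeR adjusted p = 9.87e-05), and MYC, a transcription factor that drives ribosome synthesis, was at 209, 105 and 105 CPM in PANC-1 control replicates 1, 2 and 4, against 443, 520 and 516 CPM in MIA PaCa-2, a log2 fold change of -1.82 (SE 0.33, edgeR adjusted p = 7.70e-04). In the RBM3 siRNA libraries the line calls were 0 higher and 4 lower of the 16 TOP mRNAs, 0 and 3 of the 13 host genes, 13 and 4 of the 58 assembly factors, 3 and 0 of the 7 escorts, 9 and 14 of the 69 mitochondrial proteins and 4 and 3 of the 15 regulators. Of all genes tested, 24.2% were higher and 19.3% lower there. RBM3 siRNA changed no gene of these lists past the threshold in either line.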

How the data were processed

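Per the labels' protocols, libraries were made with Illumina TruSeq v2 kits and read from both ends at 75 bp. The authors deposited raw counts of reads for each Ensembl gene, made, per the submitters' processing notes, with STAR 2.5.2a, Picard, featureCounts and Subread on hg19/GRCh37. How duplicate and multi-mapped reads were treated, whether strand was used and which annotation release served are not given in the sources used. These choices bear on the counts, among others on those of genes with near-identical pseudogenes or overlapping transcripts. The part of duplicate reads in the levels and shares of the ribosomal protein genes was not tested. Names, gene types and gene order came from GENCODE v29 and RefSeq (both GRCh38).

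All 12 libraries, in 4 groups of 3, entered 1 group-means model in edgeR 4.0.16 (R 4.3.3): TMM, filterByExpr with its minimum count of 10, 17862 genes tested, two-sided quasi-likelihood F-tests, 8 residual degrees of freedom, Benjamini-Hochberg adjustment over all genes at 0.05. Every row carried a gene identifier and none was removed. The SE was derived as the size of the log2 fold change over the root of its F statistic. In the low genes 3 counts correspond to 0.0757 to 0.211 CPM, and this limit covers counting error only. Replicates of a group differed by a chi-square per degree of freedom of 11.7 to 184 over 12 pairs, so none was a copy. The code was tested on simulated data.

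The genes and all lists were chosen with earlier results of these data known. Genes are named by rule: RPS16 and RPS6, the 8 largest called differences in each direction at 10 CPM or more in a line comparison, the 4 smallest p-values in a siRNA comparison, paralogues with their main gene, RPL5, RPL11, RPS19 and RPS26, genes that failed the filter, and 2 genes of each other list described, of which some are not reported here. FAU, SNHG8, the genes around RPS16 and those named with a non-overlap count were chosen after their values were seen. Alternatives were DESeq2 1.42.0, limma-voom (limma 3.58.1), other scalings and filters, a stricter threshold, pseudogenes added, the log2 total count as a covariate, each line alone, a replicate block and the removal of each library. The removal of 2 libraries together was chosen after seeing the data.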

Additional observations from a re-analysis of the deposited data

Results flagged for a closer look

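RPL21, a large-subunit gene, was the one member whose siRNA and control libraries did not overlap in either line and went in opposite directions. Of the 80 genes, 18 did not overlap and were lower in PANC-1, against 2.77% of all genes. In MIA PaCa-2 4 did not overlap and were higher, against 4.41% of all genes. The share of all genes that met both rules was not counted, so no conclusion is drawn from RPL21 meeting them. It was at 326, 299 and 328 CPM in PANC-1 RBM3 siRNA replicates 1, 2 and 3, against 337, 346 and 341 CPM in PANC-1 control replicates 1, 2 and 4, so every siRNA library was lower. In MIA PaCa-2 it was at 323, 345 and 353 CPM in RBM3 siRNA replicates 1, 2 and 5, against 266, 322 and 296 CPM in control replicates 1, 2 and 4. Every siRNA library was thus higher, but the closest libraries were at 322.9 and 321.8 CPM. The difference of the responses was -0.31 on the log2 scale (PANC-1 minus MIA PaCa-2, SE 0.17) with an edgeR interaction adjusted p of 0.9999, so the test did not separate the lines. Pseudogenes of RPL21 held 33.7 counts for each 100 counts of the gene.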

How the results depend on the processing

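All 34 genes called between the lines with control siRNA and all 50 with RBM3 siRNA kept their sign under every alternative. At the 0.05 threshold 24 to 34 and 33 to 50 of them stayed called, and an adjusted p of 0.01 left 23 with control siRNA. With control siRNA DESeq2 called 5 higher, and without both libraries that stand apart 49 were called lower. With RBM3 siRNA an adjusted p of 0.01 left 27 calls, 25 of them lower, and the removal of single libraries gave 33 to 57 calls, of which 31 to 55 were lower. Over all genes these removals of single libraries gave 5463 to 9243 calls. The siRNA comparisons and the difference of responses gave 0 called members under every alternative. With the log2 total count as a covariate the PANC-1 siRNA median was 0.155. With pseudogenes added the mean share in PANC-1 control libraries was 4.18%.

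Values close to 0 changed sign. RPL7 between the lines with control siRNA was 0.0306 in DESeq2, 0.0303 with median-of-ratios factors, 0.0112 in limma-voom, 0.011 with library size alone, 0.0129 with a filter of 1 CPM in 6 libraries and 0.0127 with pseudogenes added. RPS26 was 0.0253 with pseudogenes added, and RPL11 was -0.0109 without both libraries that stand apart. Their removal gave RBM3 siRNA values of -0.0366 for RPS16 and -0.0536 for RPS6 in MIA PaCa-2, -0.0928 for RPS6 in PANC-1 and -0.0392 for its difference of responses. RPLP2 in PANC-1 was 0.0589 with the total as covariate. With single libraries left out, RPL7 ran from -0.105 to 0.0954, RPL11 from -0.0172 to 0.297 and RPS26 from -0.253 to 0.119 between the lines. In the same way RBM3 siRNA values ran from -0.0364 to 0.293 for RPS16 in MIA PaCa-2, and for RPS6 from -0.0923 to 0.441 in PANC-1, -0.0535 to 0.203 in MIA PaCa-2 and -0.175 to 0.36 in the difference. The cause was not tested.

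The deviations of same-numbered libraries, replicates 1 and 2 in each line, correlated at -0.457 and -0.423 in PANC-1 and 0.101 and -0.0836 in MIA PaCa-2. So few pairs, in groups of 3 libraries, cannot show whether replicate numbers pair the samples. The replicate block gave 31 calls between the lines with control siRNA and 37 with RBM3 siRNA, against 8652 and 7640 of all 17862 genes. RPS6 siRNA values with the block were -0.0356 in PANC-1, -0.0014 in MIA PaCa-2 and -0.0342 for the difference. Mitochondrially encoded genes had 0 counts in all libraries, so a total without them was the same total.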
